A study of Mus musculus with 30 samples.

Results

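The 10 mouse genes Cyp26a1, Cyp26b1, Cyp26c1, Rara, Rarb, Crabp1, Crabp2, Stra6, Stra8 and Dhrs3 were followed as the retinoic acid metabolism and receptor genes, out of 54393 genes in the deposited expression table. They were chosen by name, for their known place in retinoic acid biology. No cut on a measured value was used, but earlier results of these data were known when they were chosen. Of the 661327 splicing events in the deposited splicing table, 231 belong to these 10 genes. Each gene occurs on exactly 1 row of the expression table, and 9 of the 10 were expressed highly enough to be tested. Cyp26c1 was not, since it lay between 0.01 and 0.24 RPKM (reads scaled for transcript length and library depth, the authors' value per group) everywhere.

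Retinoic acid is made from vitamin A and acts as the ligand of nuclear receptors. The receptors Rara and Rarb sit on DNA as partners of the RXR proteins and switch target genes on when the ligand binds. STRA6 takes retinol into cells, DHRS3 turns retinal back into retinol, the CRABP proteins carry retinoic acid in the cytoplasm, and the CYP26 enzymes break it down. Rarb, Cyp26a1 and Stra8 are textbook genes induced by retinoic acid. Added retinoic acid is a common way to direct embryonic stem cells to a neural fate, and is part of the protocol used here.

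RNA was sequenced from CGR8 mouse embryonic stem cells (ESC), from day-8 embryoid bodies made from them (EB8) and from cultures labelled as glutamatergic neurons after 7 days in vitro (DIV7). The medium held 6 µM retinoic acid at DIV-4 and DIV-2, so it was given before the EB8 samples (DIV0) were taken, and every line received it. No EB8 or DIV7 sample went without it, and the labels give none for ESC. Its effect therefore cannot be told apart from that of stage and culture. The 5 lines were Puf60_mEx5_HOM (exon 5 of the splicing factor gene Puf60 deleted, homozygous), Puf60_pEx5_HOM and Puf60_pEx5_HET (constitutive exon 5, homozygous or heterozygous), Rbm38KO (a deletion of about 1300 bp in Rbm38, which encodes an RNA-binding protein) and the parental wild type (WT). The edited lines are clonal CRISPR-Cas9 lines. Each of the 15 groups had 2 libraries, A and B. More than 1 clone is mentioned for the edited lines, yet no label ties a library to a clone. The spread behind every p-value is therefore that between the libraries of a group, and it may be technical.

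Expression per library is given as CPM, the spliced reads of a gene scaled for the depth of the library. ESC libraries held 28375996 to 38571969 spliced reads, EB8 libraries 26152711 to 30675968 and DIV7 libraries 23204150 to 28655479. Changes are log2 fold changes ± SE from limma with adjusted p-values over 13938 genes, and calls needed both an adjusted p under 0.05 and a change of at least 2-fold. The edit of Rbm38 could be seen in the data, as every Rbm38KO library held 0 spliced Rbm38 reads, and WT had 87.4 and 83.4 CPM at ESC. The authors' RPKM of Rbm38 was 5.27 in Rbm38KO against 79.5 in WT at ESC, and 2.67 in Rbm38KO against 8.20 in WT at DIV7. Puf60 had 222 and 213 CPM in Puf60_mEx5_HOM, against 344 and 328 CPM in WT at ESC, and these gene levels do not check which form of exon 5 a line makes. Of the glutamatergic markers tested in WT, Slc17a6, Grin1 and Gria1 rose and Slc17a7 fell between EB8 and DIV7, while Tbr1 was too low to be tested. All 3 GABAergic markers and all 4 astrocyte markers tested rose as well. In such bulk samples fewer cells of a type and less RNA per cell cannot be told apart.

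The promoters of Rarb and Cyp26a1 are shown first because they hold the sequence that retinoic acid receptors are best known to bind, a direct repeat of a hexamer with 5 bases between the copies. The copies searched were the hexamer AGGTCA and its variants, spelled AGTTCA by one form, GGGTCA by another form and GGTTCA by the last, in any pairing and on both strands, in the 250 bases before to 50 after each annotated start. Promoter windows were found for 9 of the 10 genes (17 windows). The Rarb repeat lies at -53 to -37 from the start and the Cyp26a1 repeat at -32 to -16, where it reads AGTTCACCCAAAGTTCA on the opposite strand. The same pattern was present in 32 of 32851 promoter windows, 0.0974% of them, and in no window of the other members. The windows of Rara did not include the annotated starts of Rara-202 (98960412) and of Rara-203 (98927818, the outermost). Both starts come up further down and were not searched. With 2 bases between the hexamers the share was 0.268% and with 1 base 0.222%, and no member window held either. A match is a description of letters, and binding was not measured. The sequences are 250 bases before the RefSeq start (build GRCm38.p6), with the repeat in capitals. The third sequence lies before a RefSeq start within the inner first exon of Rara described further down, and holds no such repeat. Its last bases overlap that exon at the coordinates given there.
Rarb, chr14:16575477-16575726, minus strand: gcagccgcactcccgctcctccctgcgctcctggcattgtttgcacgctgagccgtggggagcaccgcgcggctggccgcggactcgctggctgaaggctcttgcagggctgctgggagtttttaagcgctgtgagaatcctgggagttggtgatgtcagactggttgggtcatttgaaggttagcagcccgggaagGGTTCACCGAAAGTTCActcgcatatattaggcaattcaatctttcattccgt
Cyp26a1, chr19:37697558-37697807, plus strand: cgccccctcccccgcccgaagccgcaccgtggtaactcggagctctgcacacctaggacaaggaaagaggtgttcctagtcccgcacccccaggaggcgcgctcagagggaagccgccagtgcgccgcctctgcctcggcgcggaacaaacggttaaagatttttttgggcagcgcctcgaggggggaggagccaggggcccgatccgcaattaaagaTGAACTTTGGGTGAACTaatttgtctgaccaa
Rara, chr11:98937446-98937695, plus strand: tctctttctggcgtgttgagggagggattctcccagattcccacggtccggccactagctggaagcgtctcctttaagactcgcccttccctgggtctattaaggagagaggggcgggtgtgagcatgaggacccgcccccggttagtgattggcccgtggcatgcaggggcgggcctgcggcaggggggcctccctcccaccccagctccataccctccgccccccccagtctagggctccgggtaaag

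The genes were highest in EB8. In WT, 8 of the 9 tested members rose between ESC and EB8 and 0 fell, where 21.7% of all genes tested were called higher and 18.2% lower. All 9 fell between EB8 and DIV7, where 12.7% of all genes were called lower. The median member changed by 5.73 and -4.60 on the log2 scale in these steps, against 0.03 and 0.02 for all genes tested. Between ESC and DIV7, 5 members were higher and 2 lower in DIV7, where 29.7% of genes were called higher and 25.4% lower.

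**Figure D1:**
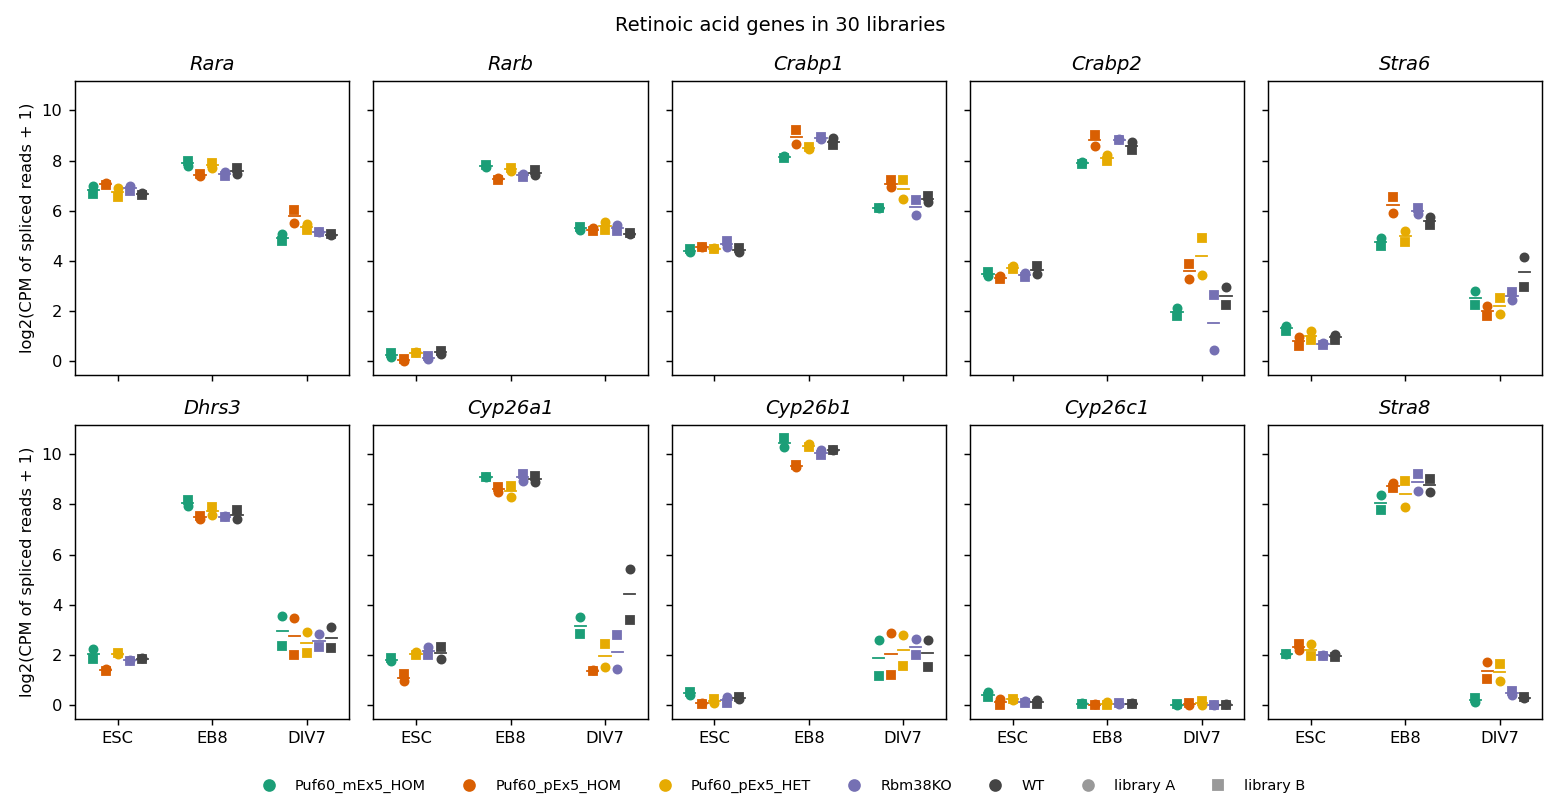
Spliced reads of the 10 genes in the 30 libraries as log2(CPM + 1), by stage (ESC, EB8, DIV7) and line (colour), with circles for library A, squares for library B and short bars for the mean of 2 libraries. Apart from Cyp26c1, every gene is highest at EB8 in every line, and the DIV7 points of Cyp26a1, Crabp2 and Stra6 spread more widely than those of Rara and Rarb.

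Among the enzymes that remove retinoic acid, Cyp26b1 (at chr6:84571414-84593908, minus strand) showed the widest range. In WT it had 0.20 and 0.25 CPM at ESC, 1161 and 1143 CPM at EB8 and 5.14 and 1.91 CPM at DIV7. The EB8 libraries lay far above both other stages, and the ESC libraries rest on 6 and 7 reads. The change was 9.88 ± 0.49 between ESC and EB8 (adjusted p = 2.98e-12) and -8.09 ± 0.49 between EB8 and DIV7 (adjusted p = 9.3e-11).
Cyp26a1 (chr19:37697798-37701536, plus strand) had 2.61 and 3.99 CPM at ESC, 475 and 562 CPM at EB8 and 42.4 and 9.46 CPM at DIV7 in WT. The DIV7 libraries disagreed with each other, although both stayed above ESC and far under EB8. It rose by 6.93 ± 0.49 (adjusted p = 4.29e-10) and fell by 4.60 on the log2 scale (SE 0.49, adjusted p = 1.74e-07). Cyp26c1 (chr19:37685581-37693398, plus strand), whose gene lies next to Cyp26a1 on chromosome 19, had at most 3 reads in any EB8 library and at most 13 in any ESC library. Of the 3 CYP26 genes, it was the one with no call at EB8.

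Dhrs3 (chr4:144892827-144928209, plus strand) encodes the short-chain reductase that returns retinal to retinol. In WT it had 2.64 and 2.61 CPM at ESC, 169 and 216 CPM at EB8 and 7.61 and 3.83 CPM at DIV7. It rose by 5.73 ± 0.41 (adjusted p = 3e-10) and then fell by 4.90 on the log2 scale (SE 0.41, adjusted p = 4.57e-09). At DIV7 it lay above both ESC libraries, but this difference of 0.83 ± 0.41 was not called (adjusted p = 0.0659).

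The receptors followed different courses. Rarb (chr14:16430839-16819156, minus strand) had 0.24 and 0.32 CPM at ESC, 172 and 193 CPM at EB8 and 32.3 and 33.8 CPM at DIV7 in WT. Its 2 libraries were close at each stage, and the stages did not overlap. The rise was 7.16 ± 0.11 (adjusted p = 1.06e-21), and it was still 4.74 ± 0.11 higher at DIV7 than at ESC (adjusted p = 5.73e-20).
Rara (chr11:98927818-98974942, plus strand) was the member with the highest WT level in ESC per length, with 104 and 98.2 CPM at ESC, 174 and 208 CPM at EB8 and 31.4 and 32.3 CPM at DIV7. Its rise to EB8 of 0.91 ± 0.15 passed the adjusted p (1.29e-05) but not the 2-fold limit. At DIV7 it was lower than at ESC by -1.64 ± 0.15 (adjusted p = 1.35e-09), so Rara and Rarb moved in opposite directions between ESC and DIV7.

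Both carriers of retinoic acid rose. Crabp1 (chr9:54764748-54773110, plus strand) had 19.6 and 22.1 CPM at ESC, 476 and 389 CPM at EB8 and 80.8 and 95.1 CPM at DIV7 in WT. Crabp2 (chr3:87948666-87953376, plus strand) had 10 and 13 CPM at ESC, 423 and 345 CPM at EB8 and 6.86 and 3.75 CPM at DIV7. At EB8 both were high, but at DIV7 Crabp1 stayed above its ESC level (2.02 ± 0.21, adjusted p = 1.75e-08) while Crabp2 did not differ from it by the test (-1.02 ± 0.50, adjusted p = 0.0674).
Stra6 (chr9:58063788-58153996, plus strand), the membrane receptor for retinol uptake, had 1.09 and 0.81 CPM at ESC, 52.1 and 42.1 CPM at EB8 and 16.6 and 6.73 CPM at DIV7. It rose by 4.62 ± 0.31 (adjusted p = 3.59e-11) and then fell by 2.03 on the log2 scale (SE 0.31, adjusted p = 7.86e-06), and its DIV7 libraries differed from each other like those of Cyp26a1.
Stra8 (chr6:34920163-34939344, plus strand), which is required for entry into meiosis in germ cells, had 3.15 and 2.76 CPM at ESC, 358 and 523 CPM at EB8 and 0.21 and 0.26 CPM at DIV7. Its change of -8.45 on the log2 scale between EB8 and DIV7 (SE 0.31, adjusted p = 1.18e-14) took it below its ESC level (-1.68 ± 0.31, adjusted p = 5.42e-05).

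Per length, the authors' RPKM for WT at EB8 ranked the genes as Cyp26b1 at 582, Crabp1 at 543, Crabp2 at 399, Cyp26a1 at 313, Stra8 at 260, Dhrs3 at 124, Rarb at 91.8, Rara at 67.6, Stra6 at 17.3 and Cyp26c1 at 0.04 RPKM. These values have no spread between libraries. Over the 5 lines at EB8, Cyp26b1 ran from 379 to 710 RPKM and Crabp1 from 340 to 602 RPKM, and each neighbouring pair overlapped down to Rara. Stra6, at 9.11 to 26.9 RPKM, lay below the lowest Rara value of 59.0 RPKM.
The order was different at the other stages. In WT at ESC the highest were Rara at 37.1, Crabp1 at 28.2 and Crabp2 at 12.9 RPKM, with all others at 2.29 RPKM or less. At DIV7 Crabp1 led at 106 RPKM, followed by Rarb at 17.1, Cyp26a1 at 14.9 and Rara at 11.9 RPKM. The place of Cyp26a1 in that order rests on WT library A, with 42.4 CPM against 9.46 CPM in library B, and in the edited lines it had 0.91 to 4.56 RPKM at DIV7.

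The edited lines went through the same course. Between ESC and EB8, 9 of 9 tested members rose in Puf60_mEx5_HOM and in Puf60_pEx5_HET, and 8 of 9 in Puf60_pEx5_HOM and in Rbm38KO, where 24%, 22.4%, 20.8% and 21.2% of all genes were called higher. The member that was not called was Rara, as in WT, by the 2-fold limit. All 9 fell between EB8 and DIV7 in each of the 4 lines, where 11.7% (Puf60_mEx5_HOM), 15.5% (Puf60_pEx5_HOM), 11.6% (Puf60_pEx5_HET) and 15.4% (Rbm38KO) of all genes were called lower. These steps share no libraries between lines.

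In WT, the counts for other genes of the pathway lay near the 21.7% of all genes called higher and 18.2% called lower at EB8. Of 15 genes for retinoid synthesis and supply, 10 were tested and 2 rose at EB8, among them Rbp4, which carries retinol in blood (12.1 and 12.9 CPM at EB8, 1.15 and 1.55 CPM at ESC, 2.53 ± 0.26). Aldh1a3, which makes retinoic acid from retinal, fell. The median of the list was 0.32 on the log2 scale against 0.03 for all genes tested.
Of 8 other retinoid receptors and binding proteins, 2 rose and 2 fell at EB8. Rarg, the third retinoic acid receptor, had 13.01 and 16.3 CPM at EB8 against 228 and 206 CPM at ESC (-3.80 ± 0.24, adjusted p = 1.75e-11), opposite to Rarb. Rxra, a partner of these receptors, rose (69.3 and 67.5 CPM at EB8, 15.9 and 17.9 CPM at ESC), as did Fabp5, which also carries retinoic acid (206 and 183 CPM at EB8, 66.6 and 72.6 CPM at ESC). Rxrg fell.
Receptor coregulators split evenly, with 2 up and 2 down at EB8 among the 9 tested of 10. Nrip1, a gene for a corepressor that is itself induced by retinoic acid in other cells, rose by 1.89 ± 0.16, and the coactivator gene Ncoa3 fell by 1.25 on the log2 scale (SE 0.12).

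Among genes known to respond to retinoic acid, 18 of the 21 tested (22 listed) were called higher and 1 lower at EB8. Added retinoic acid and stage cannot be told apart here, so these counts do not measure a response to it. Their median was 3.80 on the log2 scale, against 0.03 for all genes tested. Nr2f1, a nuclear receptor gene of the developing nervous system, had 196 and 178 CPM at EB8 and 0.03 and 0.07 CPM at ESC. Hoxb5, Meis1 and Hoxd4, which encode homeodomain factors of axial patterning, rose by 6.65 ± 0.12, 6.28 ± 0.12 and 6.06 ± 0.24. Gbx2 fell.
Between EB8 and DIV7, 8 of 21 were called lower, 1 was higher (Pdgfra) and the median was -0.35 on the log2 scale. Meis1 had 231 and 239 CPM at DIV7, against 192 and 200 CPM at EB8, whereas Hoxd4 had 15.5 and 8.21 CPM at DIV7, against 76.7 and 69.0 CPM at EB8.
Of 6 germ cell and meiosis genes other than Stra8, 2 rose at EB8 and 2 fell. Rec8, a meiotic cohesin gene, had 420 and 463 CPM at EB8 against 16.99 and 26.1 CPM at ESC, while Sycp3, of the synaptonemal complex, had 1.45 and 4.53 CPM at EB8 against 26.6 and 22.9 CPM at ESC.

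The genes whose RPKM followed each member most closely over the 15 groups were picked by the Pearson correlation of log2(RPKM + 1) among 13093 genes with at least 5 RPKM in any group. Groups of 1 stage share most of their course, so high values are common and no p is given. Dhrs3 and Cyp26b1 were in each other's closest 3 (r = 0.997), and Stra8 was the closest gene to Crabp2 (r = 0.986). For Cyp26b1 the closest 2 were Chrna3, a nicotinic receptor subunit gene, and Pax3, a neural tube and neural crest factor gene (both r = 0.999). Hoxa3 was the closest to Rarb (r = 0.999), Irx3 to Crabp1 (r = 0.991), Crb2 to Stra6 (r = 0.989), Zfp516 to Stra8 (r = 0.997) and Angptl2 to Cyp26a1 (r = 0.986). Of these only Hoxa3 is on the list of retinoic acid responsive genes.

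Against WT at the same stage, no member was called in any edited line at ESC or EB8. All genes tested were called in 2.47% (Puf60_pEx5_HOM), 0.0789% (Puf60_mEx5_HOM), 0.0359% (Puf60_pEx5_HET) and 0.0359% (Rbm38KO) of cases at ESC. The shares at EB8 were 1.66%, 1.64%, 0.115% and 0.043% in the same order of lines. At an unadjusted p under 0.05 limma had 5 members in Puf60_mEx5_HOM at EB8 (Rara, Rarb, Crabp1, Stra6 and Stra8), 2 in Puf60_pEx5_HOM at EB8 (Rarb and Stra6), 2 in it at ESC (Rara and Rarb) and 0 elsewhere at these stages. At the same threshold stood 30.7%, 22.9% and 29.7% of all genes in these 3 comparisons, so the 2 of 9 members in Puf60_pEx5_HOM are no more than all genes show. With voom weights the calls were 0 as well, apart from Rarb in Puf60_pEx5_HOM at ESC. A missed threshold does not show equal levels, and some members leaned to one side without a call. How many of all genes have libraries that do not overlap was not counted, so such gaps are not a result about the members. The summed CPM of 5 neuron markers at EB8 also differed between lines, with 1183 and 1370 in Puf60_mEx5_HOM, 610 and 529 in Puf60_pEx5_HOM, and 793 and 886 in WT, and its part in these leanings was not tested.
At EB8 in Puf60_mEx5_HOM, Crabp1 had 289 and 276 CPM, against 476 and 389 CPM in WT. Its difference of -0.61 ± 0.21 had an adjusted p of 0.049 and stayed under 2-fold. Stra6 had 28.9 and 23.04 CPM there, against 52.1 and 42.1 CPM in WT (-0.84 ± 0.31, adjusted p = 0.0702), and Crabp2 had 243 and 233 CPM against 423 and 345 CPM in WT (adjusted p = 0.394).
In Puf60_pEx5_HOM at EB8, Cyp26b1 had 715 and 770 CPM, against 1161 and 1143 CPM in WT. The libraries of the line lay below all 8 others at EB8, but the difference of -0.63 ± 0.49 was not called (adjusted p = 0.499). The fit uses 1 spread per gene over all groups, and the libraries of Cyp26b1 differed most at DIV7.
At ESC, Rarb had 0 and 2 reads in Puf60_pEx5_HOM, against 7 and 9 reads in WT. The authors' deposited table gives this gene a log2 fold change of -2.47 with an FDR of 0.00584, while the limma fit gave an adjusted p of 0.0676.

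At DIV7, Cyp26a1 was lower in 3 of the 4 edited lines. It had 1.63 and 1.58 CPM in Puf60_pEx5_HOM, 1.84 and 4.40 CPM in Puf60_pEx5_HET, 1.70 and 5.95 CPM in Rbm38KO, 10.3 and 6.24 CPM in Puf60_mEx5_HOM, and 42.4 and 9.46 CPM in WT. The WT libraries lay apart from each other, and those of the 3 lines called lay below both. The difference was -3.03 ± 0.49 in Puf60_pEx5_HOM (adjusted p = 0.000705), -2.44 ± 0.49 in Puf60_pEx5_HET (adjusted p = 0.0177), -2.30 ± 0.49 in Rbm38KO (adjusted p = 0.0432) and -1.24 ± 0.49 in Puf60_mEx5_HOM (adjusted p = 0.223). The counts of members called at DIV7 were 3 in Puf60_pEx5_HOM, 2 in Puf60_pEx5_HET, 1 in Rbm38KO and 0 in Puf60_mEx5_HOM, where 2.57%, 0.574%, 0.301% and 0.395% of all genes were called. At an unadjusted p under 0.05 limma had 2 of 9 members in Puf60_mEx5_HOM (Cyp26a1 and Stra6) and 3 in Rbm38KO (Cyp26a1, Crabp2 and Stra6). In Puf60_pEx5_HOM there were 5 (Cyp26a1, Rara, Crabp1, Stra6 and Stra8). Puf60_pEx5_HET had 6 (Cyp26a1, Rara, Rarb, Crabp2, Stra6 and Stra8). At the same threshold stood 16.1% (Puf60_mEx5_HOM), 6.67% (Rbm38KO), 30% (Puf60_pEx5_HOM) and 12% (Puf60_pEx5_HET) of all genes.
Stra6 had 3.55 and 2.49 CPM in Puf60_pEx5_HOM, 2.72 and 4.70 CPM in Puf60_pEx5_HET, 4.41 and 5.78 CPM in Rbm38KO, 6.03 and 3.77 CPM in Puf60_mEx5_HOM, and 16.6 and 6.73 CPM in WT. All 8 libraries of the edited lines lay below both WT libraries. It was called lower in Puf60_pEx5_HOM (-1.55 ± 0.31, adjusted p = 0.00256) and Puf60_pEx5_HET (-1.34 ± 0.31, adjusted p = 0.0364), and not in Rbm38KO (adjusted p = 0.301) or Puf60_mEx5_HOM (adjusted p = 0.113). Stra8 was higher in Puf60_pEx5_HOM, with 2.27 and 1.06 CPM against 0.21 and 0.26 CPM in WT (1.07 ± 0.31, adjusted p = 0.0261). In Puf60_pEx5_HET it had 0.96 and 2.12 CPM (1.00 ± 0.31, adjusted p = 0.144).

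The change between EB8 and DIV7 was also set against that of WT, where 4.06% (Puf60_pEx5_HOM), 0.861% (Puf60_mEx5_HOM), 0.0359% (Puf60_pEx5_HET) and 0.0359% (Rbm38KO) of all genes were called. Cyp26a1 and Stra6 were called there in Puf60_pEx5_HOM and no member in the other lines.
All of these comparisons share the WT libraries, and 1 of those decides most of them. Without WT library A, Cyp26a1 in Puf60_pEx5_HOM still differed by -2.003 (adjusted p = 0.0119), but Cyp26a1 in Puf60_pEx5_HET (-1.42, adjusted p = 0.346) and Rbm38KO (-1.27, adjusted p = 0.813) was no longer called. Stra6 then differed by -0.96 in Puf60_pEx5_HOM (adjusted p = 0.0771) and by -0.75 in Puf60_pEx5_HET (adjusted p = 0.705), and Stra8 by 1.04 in Puf60_pEx5_HOM (adjusted p = 0.142). Fitted on only the libraries compared, none of the calls at DIV7 held, with an adjusted p of 0.152 for Cyp26a1 and 0.149 for Stra6 in Puf60_pEx5_HOM. The call of Cyp26a1 in Rbm38KO also ended with the letters as a replicate block (adjusted p = 0.0529), with voom weights (adjusted p = 0.276) and with a pseudocount of 0.25 CPM (adjusted p = 0.0512). Without WT library B, Cyp26a1 in Puf60_mEx5_HOM was called as well (-2.27, adjusted p = 0.00516). The authors' deposited table gives Cyp26a1 in Puf60_pEx5_HOM a log2 fold change of -4.03 (FDR 0.0102) and Stra6 one of -2.01 (FDR 0.00901). In the same table Cyp26a1 missed an FDR of 0.05 in Puf60_pEx5_HET (FDR 0.248) and Rbm38KO (FDR 0.596). Stra8 in Puf60_pEx5_HOM (FDR 0.177) and Stra6 in Puf60_pEx5_HET (FDR 0.19) missed it as well.

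Markers of other cell types differed between lines as well. The summed CPM of 4 primitive endoderm markers (Gata4, Gata6, Sox17 and Sox7) at DIV7 was 1.49 and 0.94 in Puf60_pEx5_HOM, 3.81 and 7.02 in Puf60_pEx5_HET, 3.28 and 14.5 in Rbm38KO, 13.5 and 12.3 in Puf60_mEx5_HOM, and 40.1 and 16.2 in WT. It was highest in the WT library that was also highest in Cyp26a1 and Stra6. The 4 measured fibroblast and meninges markers, led by Col1a1, summed to 248 and 148 CPM in Puf60_pEx5_HOM, 791 and 332 in Puf60_pEx5_HET, 447 and 359 in Rbm38KO, 2656 and 783 in Puf60_mEx5_HOM, and 1208 and 333 in WT. Both libraries lay below both WT libraries in Puf60_pEx5_HOM alone. Astrocyte markers (5 genes) summed to 627 and 395 CPM in Puf60_pEx5_HOM, 729 and 935 in Puf60_pEx5_HET, 804 and 896 in Rbm38KO, 933 and 839 in Puf60_mEx5_HOM, and 1056 and 1020 in WT, so that every library of an edited line lay below both WT libraries, as for Stra6. The part of these markers in the result was not tested.
Beside the higher Stra8, 5 pluripotency markers summed to 112 and 174 CPM in Puf60_pEx5_HOM, 59.5 and 110 CPM in Puf60_pEx5_HET, and 42.8 and 48.6 CPM in WT. Most of the WT sum was Esrrb, at 55.9 and 63.7 CPM in Puf60_pEx5_HOM and 36.6 and 35.3 CPM in WT. Pou5f1 had 38.1 and 75.6 CPM in Puf60_pEx5_HOM, 6.33 and 53.4 CPM in Puf60_pEx5_HET, and 3.46 and 8.76 CPM in WT. Their part was not tested either.

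**Figure D2:**
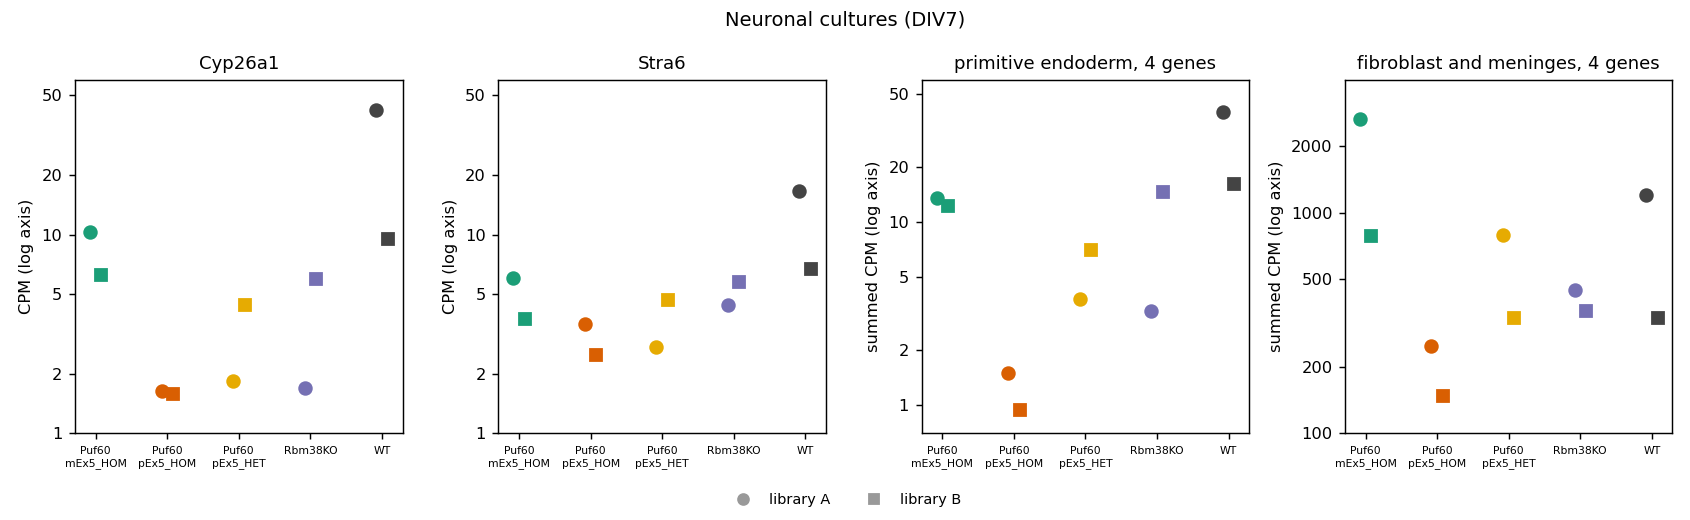
CPM of Cyp26a1 and Stra6 and summed CPM of 4 primitive endoderm and 4 fibroblast and meninges markers in the 10 DIV7 libraries, on log axes, by line, with circles for library A and squares for library B. WT library A is the highest point for Cyp26a1, Stra6 and the endoderm markers, and the Puf60_pEx5_HOM libraries are lowest for Cyp26a1 and the endoderm markers.

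The other members tested were not called at DIV7 in any line. Rara had 45.2 and 64.6 CPM in Puf60_pEx5_HOM, against 31.4 and 32.3 CPM in WT, a difference of 0.75 ± 0.15 that passed the adjusted p (0.00239) but not the 2-fold limit. Crabp2 ranged most, with 9.85 and 29.3 CPM in Puf60_pEx5_HET, 0.36 and 5.25 CPM in Rbm38KO, and 6.86 and 3.75 CPM in WT, and was not called in either line (1.57 ± 0.50, adjusted p = 0.171, and -1.07 ± 0.50, adjusted p = 0.748). Rarb lay between 32.3 and 46.0 CPM in all 10 DIV7 libraries. Both WT libraries, at 32.3 and 33.8 CPM, lay below every library of the edited lines. Cyp26b1 and Dhrs3 differed more between libraries A and B than between lines, with A above B in all 5 lines.
Among the pathway lists, the genes called against WT at DIV7 included Rbp4 in the same 3 lines as Cyp26a1. It fell outside the rule for these comparisons and was picked after its values were seen. Rbp4 had 2.06 and 1.13 CPM in Puf60_pEx5_HOM, 1.68 and 2.20 in Puf60_pEx5_HET, 1.54 and 2.59 in Rbm38KO, and 8.22 and 4.53 in WT. None of the 8 receptors and binding proteins and none of the 9 coregulators tested was called at DIV7 in any line.

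Splicing of the members was read as PSI, the percent of reads that include a sequence. An event was tested where every library of the fit had at least 10 reads and the mean PSI lay between 5 and 95. Calls needed a difference of at least 10 points as well as an adjusted p under 0.05. At EB8, where the genes are high, 17 member events could be tested against WT, with 2 at ESC and 8 at DIV7. The 3 events called were all in Puf60_pEx5_HOM at EB8, where 2.45% of 28069 events were called, and they describe 2 places, in Dhrs3 and Cyp26b1.
In Dhrs3 the choice was between acceptors 155 bases apart. Use of the upstream acceptor was 10.1 and 9.14% in Puf60_pEx5_HOM, 21.6 and 21.99% in Puf60_mEx5_HOM, 19.5 and 17.3% in Puf60_pEx5_HET, 22.6 and 19.7% in Rbm38KO, and 20.2 and 20.1% in WT. The libraries of Puf60_pEx5_HOM lay well below all others. The difference from WT was -10.5 points (adjusted p = 0.000261), and use of the downstream acceptor rose by 10.6 points (adjusted p = 0.00033), which counts the same reads again. With no filter on the mean PSI both had an adjusted p of 0.0591 and were not called, and without Puf60_pEx5_HOM library B the downstream acceptor differed by 9.98 points, under the limit of 10. Dhrs3 itself had 170 and 187 CPM in Puf60_pEx5_HOM, against 169 and 216 CPM in WT. The upstream form is annotated in Dhrs3-201, a transcript classed as subject to nonsense-mediated decay (GENCODE vM21).
PUF60 is known to bind pyrimidine tracts before acceptors, so both sites are shown as 40 bases before to 10 bases after the cut (GRCm38, plus strand), with the AG in capitals. Of the 20 bases before the AG, 13 are pyrimidines with 8 T at the upstream acceptor and 15 are pyrimidines with 3 T at the downstream one.
Dhrs3 upstream acceptor, chr4:144919190-144919239: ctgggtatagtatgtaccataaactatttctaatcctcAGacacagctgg
Dhrs3 downstream acceptor, chr4:144919345-144919394: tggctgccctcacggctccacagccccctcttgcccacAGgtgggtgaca

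In Cyp26b1 the first intron (chr6:84588194-84593788) had a PSI, here the percent retained, of 46.6 and 49.0% in Puf60_pEx5_HOM, 27.2 and 26.2% in Puf60_mEx5_HOM, 33.3 and 30.1% in Puf60_pEx5_HET, 32.8 and 32.6% in Rbm38KO, and 30.5 and 29.5% in WT. Puf60_pEx5_HOM stood above all other libraries, by 17.8 points over WT (adjusted p = 5.08e-05). Its reads spliced across this intron were 1590 and 1261, against 3712 and 3479 in WT, or 39.6% of WT. The other 5 introns of the gene had 57.6% to 61.3% of the WT reads.
Reads over the intron's 5′ boundary were 334 and 315 in Puf60_pEx5_HOM, against 379 and 404 in WT. At the 3′ boundary they were far more, 2439 and 2110 in Puf60_pEx5_HOM against 2876 and 2513 in WT, and most of the reads counted as retained lie there. Cyp26b1-204 is annotated to start inside this intron, at position 84588638, close to that end. For the reads at the 3′ boundary, retention and a start inside the intron cannot be told apart. A transcript that starts there does not cross the 5′ boundary, whose reads were not tested on their own.
At ESC, 0.00908%, 1.66%, 0.0136% and 0% of events were called in Puf60_mEx5_HOM, Puf60_pEx5_HOM, Puf60_pEx5_HET and Rbm38KO, and at DIV7 0.101%, 1.49%, 0.0225% and 0%, with no member event among them.
Neither event had a call in Puf60_mEx5_HOM, Puf60_pEx5_HET or Rbm38KO, where 0.777%, 0.0107% and 0.00356% of events were called at EB8.

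**Figure D3:**
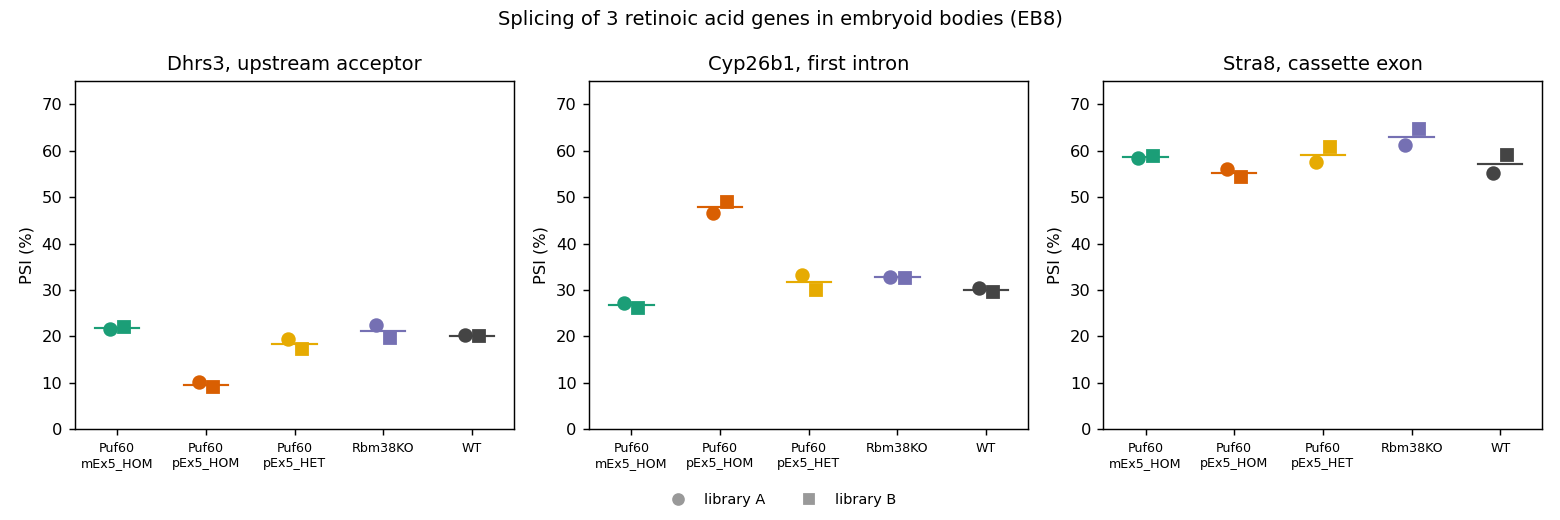
PSI in percent of the upstream acceptor of Dhrs3, the first intron of Cyp26b1 and a cassette exon of Stra8 in the EB8 libraries of the 5 lines, with circles for library A, squares for library B and bars for the mean of 2. Puf60_pEx5_HOM lies below the other lines in Dhrs3 and above them in Cyp26b1, and the Stra8 exon stays between 54.3 and 64.7% in all 10 libraries.

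Stra8 held a 135-base exon (chr6:34927719-34927853) with a PSI of 55.2 and 59.0% in WT at EB8, resting on 2308 and 3434 reads. It ranged from 54.3 to 64.7% over the 10 EB8 libraries with no call. At DIV7 it had too few reads to be tested.

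Rara changed its first exon between stages. In WT an inner first exon (chr11:98937677-98937879, where Rara-204 and Rara-201 start) had a PSI of 88.7 and 93.6% at ESC, 30.4 and 36.6% at EB8 and 26.9 and 12.9% at DIV7, set against splicing from the outermost first exon. The ESC libraries lay far above the rest. The difference was -57.7 points between ESC and EB8 (adjusted p = 6.92e-08), where 13.6% of events were called, and -71.2 points between ESC and DIV7 (adjusted p = 7.34e-08), where 30.5% were. The same event was called between ESC and EB8 in each of the 4 edited lines, by -42.8 to -58.6 points, where 17.6% (Puf60_mEx5_HOM), 11.5% (Puf60_pEx5_HOM), 16% (Puf60_pEx5_HET) and 13.6% (Rbm38KO) of events were called. At most 2 reads per library joined this exon to anything upstream, so the PSI compares places where the transcript starts. In Puf60_pEx5_HOM at EB8 it was 53.6 and 42.7%, against 30.4 and 36.6% in WT, and was not called (14.7 points, adjusted p = 0.138). Between EB8 and DIV7 the exon was called in Puf60_pEx5_HOM (-31.8 points, adjusted p = 0.000112) and Rbm38KO (-21.96 points, adjusted p = 0.0103), and not in WT (-13.6 points, adjusted p = 0.128), Puf60_mEx5_HOM or Puf60_pEx5_HET. Whether the lines differ in this step was not tested.
Counted in reads, the inner first exon gave 87 to 155 reads in ESC, 48 to 85 in EB8 and 8 to 31 in DIV7 cultures, over the 10 libraries of each stage. The outermost first exon gave 3 to 13, 32 to 78 and 31 to 95 reads. These reads are few, are not scaled for depth and were not tested.

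Further downstream, transcripts reach a common exon either from an upstream coding exon (chr11:98950245-98950795) or from other exons between them, among which Rara-202 is annotated to start at 98960412. The share from the upstream coding exon was 36.0 and 34.3% in WT at ESC, 15.6 and 14.3% at EB8 and 58.5 and 55.3% at DIV7. The 95% Wilson score intervals of the EB8 libraries were 13.1 to 18.5% and 12.1 to 16.9%. They lie below those of the ESC libraries, 31.2 to 41% and 29 to 39.9%, and cover counting error only. Over the 10 libraries of each stage ESC ran from 32.3 to 38.8%, EB8 from 12.5 to 19.4% and DIV7 from 33.3 to 61.1%. The stages did not overlap between EB8 and the others. This is a description, picked after the reads were seen, and was not tested.
The reads show which side moved. Those from the upstream coding exon numbered 99 to 183 in ESC, 76 to 127 in EB8 and 33 to 69 in DIV7 libraries, while the other exons gave 167 to 293 reads in ESC, 514 to 712 in EB8 and 24 to 88 in DIV7 libraries.

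**Figure D4:**
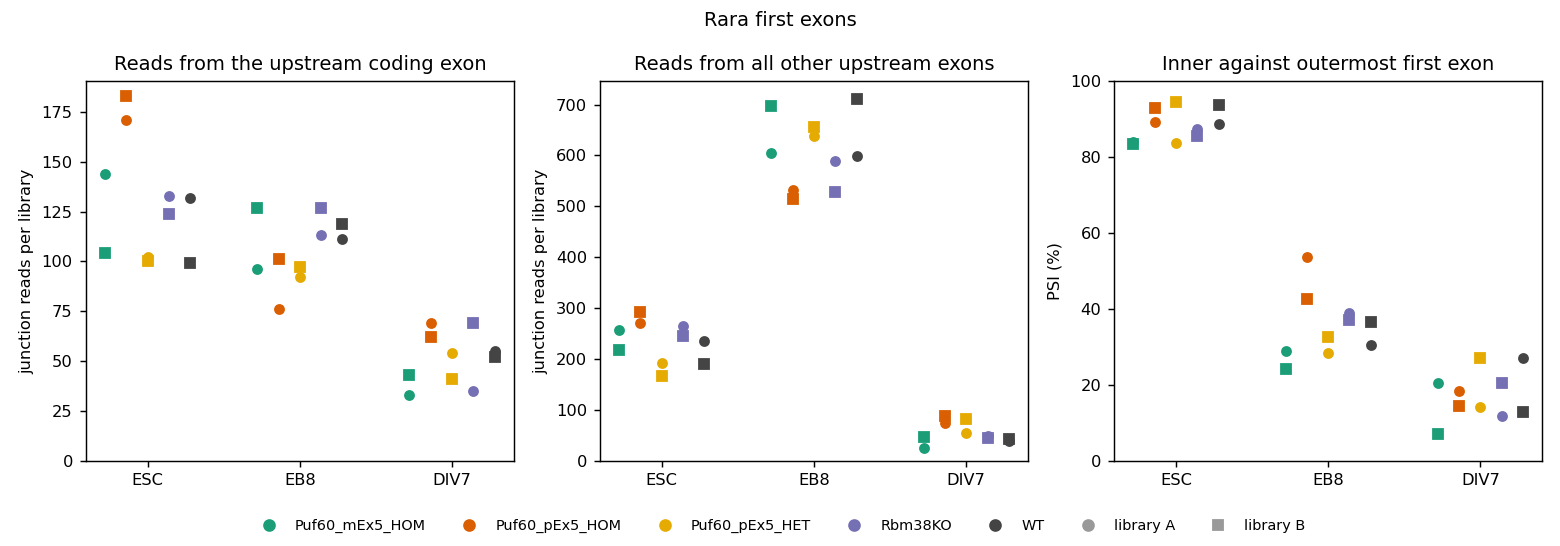
Junction reads of Rara per library that enter the common exon from the upstream coding exon (left) or from all other exons (middle), not scaled for depth, and PSI in percent of the inner against the outermost first exon (right), by stage and line, with circles for library A and squares for library B. Reads from the other exons reach 514 to 712 at EB8 against at most 293 at ESC, and the PSI is above 80% in every ESC library and below 60% at EB8 and DIV7.

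Rarb used mostly 1 start, less so at DIV7 than at EB8 in WT. In WT the junction from the exon at chr14:16574858-16574949, near the annotated starts of Rarb-201 and Rarb-202 and the promoter printed above, had 155 and 165 reads at DIV7, against 1178 and 1374 reads at EB8. The junction from a donor far upstream had 13 and 18 reads at DIV7, against 11 and 29 reads at EB8. The PSI of the exon was thus 84.9 and 81.2% at DIV7, against 98.1 and 95.7% at EB8 in WT, a difference of -13.8 points (adjusted p = 1.42e-06), where 16.8% of events were called. Reads from the far upstream donor were about as many at both stages, on low numbers. In the edited lines the same event was called in Puf60_mEx5_HOM and Rbm38KO and not in Puf60_pEx5_HOM or Puf60_pEx5_HET, where 14%, 18.7%, 19.6% and 14.9% of events were called, and these differences between lines were not tested. The 3 calls between WT stages are thus 2 of Rara and 1 of Rarb, and all concern where transcripts start.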

How the data were processed

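PolyA RNA was sequenced from stranded libraries whose inserts were made longer than usual, per the labels. The authors deposited 1 RPKM value per gene and group, and a log2 fold change, p-value and FDR of each edited line against WT, per the file headers. A second table of the authors is vast-tools output, per the file headers, giving each library a PSI in percent. Beside each PSI the authors deposited a quality string that holds the reads, and each event has its length. Salmon 0.14.1, edgeR and mm10 appear in the submitters' processing notes with no role. Whether counting used strand is not given in the sources used here.

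Since RPKM had no value per library, the exon-exon junction reads of each gene's introns were summed per library (25626 genes), a measure that misses genes without introns. Median-of-ratios scaling gave CPM, a gene was kept if 2 libraries reached 1 CPM, and log2(CPM + 1) was fitted with limma 3.58.1 in R 4.3.3 (trend, robust) on all 30 libraries with 15 group means, leaving 15 residual degrees of freedom. This scale understates changes of low genes. Splicing was fitted with limma on the log2 ratio of including to excluding reads (1 added to both), weighted by reads, per stage or pair of stages. P-values were adjusted by Benjamini-Hochberg over all genes or events of a fit. Both fits were tested on simulated data with known changes and a single spread for all genes or events. That setting does not cover genes whose libraries lie far apart, such as Cyp26a1 at DIV7. The members, gene lists and tests were chosen with earlier results of these data known. All 10 members were named, up to 4 called genes per pathway list and WT step, the 3 closest genes by pattern and every called splicing event. Gene positions are from GENCODE vM21 (GRCm38) and promoters from RefSeq. Alternatives were other scaling, pseudocounts of 0.25 and 4 CPM, other filters, voom weights, a replicate block, fits on only the libraries compared, the authors' fold changes and leaving out each library. The 2 libraries of a group differed by more than counting noise in all 15 groups. Some genes of the lists are not reported here.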

Additional observations from a re-analysis of the deposited data

Results flagged for a closer look

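Between EB8 and DIV7 the change of 2 members differed between Puf60_pEx5_HOM and WT by a test of the difference itself, in which 4.06% of all genes were called. Cyp26a1 fell further in Puf60_pEx5_HOM than in WT, by -2.625 (SE 0.696, adjusted p = 0.024). Stra6 did so by -2.209 (SE 0.441, adjusted p = 0.00354), having been at 59.4 and 93.1 CPM in Puf60_pEx5_HOM at EB8, against 52.1 and 42.1 CPM in WT. Without WT library A at DIV7, the difference was -1.60 for Cyp26a1 (adjusted p = 0.122) and -1.61 for Stra6 (adjusted p = 0.024). Without WT library B at DIV7 it was -3.65 for Cyp26a1 and -2.81 for Stra6. Leaving out Puf60_pEx5_HOM library B at EB8 or at DIV7, or either WT library at EB8, also took Cyp26a1 past the threshold, with adjusted p from 0.0602 to 0.0724. Fitted on only the libraries compared, neither was called (adjusted p = 0.199 for Cyp26a1 and 0.103 for Stra6). The summed endoderm markers that stand beside these genes at DIV7 are given in the report, and their part was not tested. No member differed from WT in the other 3 edited lines for this step, where limma called 0 members and 0.861%, 0.0359% and 0.0359% of all genes in Puf60_mEx5_HOM, Puf60_pEx5_HET and Rbm38KO, nor in any line between ESC and EB8.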

How the results depend on the processing

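No result changed direction while called. In the counts of members and of splicing events, 358 values under an alternative stayed within 1.5 times the reported count and 31 did not. With a pseudocount of 0.25 CPM the count for Rbm38KO at DIV7 was 0, and with 4 CPM that for Puf60_pEx5_HET was 1. With voom weights the counts were 1 for Puf60_pEx5_HOM at ESC (Rarb), 0 for Puf60_pEx5_HET and 0 for Rbm38KO at DIV7, as they were with the authors' deposited fold changes (1, 0 and 0). Fitted on only the libraries compared, Puf60_pEx5_HOM, Puf60_pEx5_HET and Rbm38KO had 0 members called at DIV7, the EB8 step of Puf60_mEx5_HOM had 1 that differed from WT and the DIV7 step of Puf60_pEx5_HOM had 0. With no filter on the mean PSI, 1 member event was called in the lines (Cyp26b1) and 5 between WT stages. Without 1 library at a time, members called between WT stages were 8 to 9 (EB8 against ESC), 9 (DIV7 against EB8) and 7 to 8 (DIV7 against ESC). At DIV7 they were 1 to 3 in Puf60_pEx5_HOM, 0 to 2 in Puf60_pEx5_HET, 0 to 2 in Rbm38KO and 0 to 2 in Puf60_mEx5_HOM. The DIV7 step differed from WT for 1 to 3 members in Puf60_pEx5_HOM, 0 to 1 in Puf60_mEx5_HOM, 0 to 1 in Puf60_pEx5_HET and 0 to 2 in Rbm38KO, and splicing events called were 2 to 3 in the lines and 3 to 4 between WT stages. Libraries whose removal moved a count were both WT libraries at DIV7, library A of Puf60_pEx5_HET, both of Rbm38KO and library B of Puf60_pEx5_HOM at DIV7, and library B of Puf60_pEx5_HOM and of WT at EB8. Apart from the fewer samples of these fits, the cause was not tested. For Stra8 in Puf60_pEx5_HOM at DIV7, 8 alternatives ended the call. The letters A and B do not pair libraries by the labels, and their deviations correlated from 0.321 to 0.529 within ESC, where all 10 pairs of lines shared a letter effect, from -0.258 to 0.624 within EB8 and from -0.21 to 0.603 within DIV7. With the letters as a replicate block, the count for Rbm38KO at DIV7 was 0, as Cyp26a1 then had an adjusted p of 0.0529, and no other count moved by over 1.5 times, those at ESC included. Depth limits Rarb, Cyp26b1 and Cyp26c1 at ESC and Stra8 at DIV7, with at most 14 reads in any ESC library for the first 3.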

Other observations

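In ESC, genes of the pathway lists were called in 1 edited line, Puf60_pEx5_HOM, where 2.47% of all genes were called, more than in the other lines. They were 1 of 8 receptors and binding proteins and 2 of 21 responsive genes tested, all lower. Rxrg, a receptor partner, had 1.66 and 2.00 CPM there, against 4.85 and 5.19 CPM in WT (-1.09 ± 0.21, adjusted p = 0.000751). Gbx2 had 5.66 and 5.08 CPM, against 11.4 and 12.3 CPM in WT (-1.01 ± 0.24, adjusted p = 0.00451). Tgm2, a transglutaminase gene induced by retinoic acid in many cells, had 3.59 and 5.15 CPM, against 10.6 and 16.04 CPM in WT (-1.40 ± 0.47, adjusted p = 0.0485). At EB8, Rbp4 had 5.55 and 4.93 CPM in Puf60_mEx5_HOM and 3.49 and 3.01 CPM in Puf60_pEx5_HET, against 12.1 and 12.9 CPM in WT, and was called lower in both.

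At DIV7, Pdgfra, a receptor gene of mesenchyme and glial precursors, had 19.8 and 3.96 CPM in Puf60_pEx5_HOM, against 71.0 and 43.8 CPM in WT (-2.48 ± 0.49, adjusted p = 0.00256). Sycp3 had 2.06 and 3.24 CPM in Puf60_pEx5_HOM, against 0.54 and 0.44 CPM in WT (1.27 ± 0.37, adjusted p = 0.0244), the direction that Stra8 took in that line.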
